A study of Mus musculus with 11 samples.

Results

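The genes of sterol, fatty acid and phospholipid synthesis were examined for open chromatin in EpCAM+ cells of the E17.5 mouse lung. The list holds 38 genes: 14 enzymes of sterol synthesis, 6 regulators, 10 enzymes of fatty acid synthesis, 2 acyl-CoA ligases, 4 enzymes of phospholipid and glycerolipid synthesis and 2 sterol transport genes. A peak belonged to the list when the nearest protein-coding gene body, at most 100 kb away, was one of the 38. By this rule 2533 of the 981265 deposited peaks were members. They gave 257 windows of 400 bp, of which 39 had a peak in fewer than 3 of the 11 libraries and were left untested. The remaining 218 were tested among 83263 regions of the whole genome. Of the 218, 6 were equally near to a gene outside the list, 5 at Acsl3 and Utp14b and 1 at Lpin1 and Ntsr2.

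ATAC-seq finds open chromatin by letting a transposase cut the DNA it can reach. Here it was run on cells selected with magnetic beads for EpCAM, which marks epithelium. The knockout group, Prdm3/16KO, comprised 5 libraries from fetuses whose floxed Prdm3 (Mecom) and Prdm16 alleles are deleted by ShhCre, a recombinase expressed from the Shh gene in the lung epithelium. The control group comprised 6 libraries. According to the breeding notes, Prdm3fl/fl Prdm16fl/wt ShhCre+ males were mated with Prdm3fl/fl Prdm16fl/fl females, so litters of this cross are all Prdm3fl/fl. The labels say no more of the controls' alleles, and not whether each library came from its own fetus, so p-values measure the spread between libraries, which may be technical. Peak lists do not show whether the floxed exons were lost.

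Cells make cholesterol and fatty acids from cytosolic acetyl-CoA, and join fatty acids to glycerol and choline to make phosphatidylcholine. When sterols are scarce, the escort protein SCAP carries the SREBP transcription factors to the Golgi for cleavage, and the INSIG proteins hold them back when sterols are plentiful. In the late fetal lung, alveolar type 2 cells use these pathways to fill lamellar bodies with surfactant, whose main lipid is phosphatidylcholine.

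RefSeq promoters of build GRCm38.p6, each from 250 bases before to 50 bases after an annotated start, were available for 33 of the 38 genes. Sqle, Fdft1, Fdps, Scd1 and Scd2 had none in the table. In total, 4 motifs were searched on both strands. The sterol regulatory element TCACNCCAC, to which SREBPs bind, was found in 4 of 47 member promoters (8.51%), of 3 genes, and in 1.24% of all 32851 promoters. Overlapping Pcyt1a promoters hold the same site, at -116 and -215 from their starts, and it is counted in each. CCAAT, bound by NF-Y, a partner of SREBPs, was in 57.4% of member promoters and 37.4% of all. The E-box CACGTG was in 17.0% and 7.15%, and the NKX homeobox core CAAGTG in 12.8% and 13.6%. In Fasn a CCAAT and a complementary match overlap. A match is a run of letters and not a measured binding site.

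The promoters of Hmgcs1, Mlxipl and Pcyt1a are shown because they hold the sterol element, at -137, -136 and -116 from the start. For Mlxipl this is an internal start, at 135106891. The Mlxipl promoter at the gene's first base, 135089890, had no sterol element and lay in no tested region. Those of Fasn, Acly and Me1 are shown because, of 8 genes with a promoter in a called region, they had the greatest differences in either direction, a choice made after the values were seen. Capitals mark every match to the 4 motifs on either strand, CCAAT reading ATTGG on the opposite strand, and Me1 has none. Each line runs 5′ to 3′ in the direction of the gene.
Hmgcs1 (HMG-CoA synthase, chr13:119690101-119690400, plus strand): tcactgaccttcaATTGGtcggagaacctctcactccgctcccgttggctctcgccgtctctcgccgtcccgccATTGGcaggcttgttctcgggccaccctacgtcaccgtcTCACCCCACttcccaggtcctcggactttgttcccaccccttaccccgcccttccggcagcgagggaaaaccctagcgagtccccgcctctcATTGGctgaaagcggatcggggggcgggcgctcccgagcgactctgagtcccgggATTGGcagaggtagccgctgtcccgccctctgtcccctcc
Mlxipl (ChREBP, chr5:135106641-135106940, plus strand): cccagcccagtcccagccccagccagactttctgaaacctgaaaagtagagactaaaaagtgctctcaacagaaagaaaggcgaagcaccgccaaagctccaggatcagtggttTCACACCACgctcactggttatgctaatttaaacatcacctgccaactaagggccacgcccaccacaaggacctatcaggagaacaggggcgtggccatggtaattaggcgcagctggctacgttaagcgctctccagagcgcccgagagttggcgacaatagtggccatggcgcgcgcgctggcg
Pcyt1a (the enzyme that makes CDP-choline, chr16:32430671-32430970, plus strand): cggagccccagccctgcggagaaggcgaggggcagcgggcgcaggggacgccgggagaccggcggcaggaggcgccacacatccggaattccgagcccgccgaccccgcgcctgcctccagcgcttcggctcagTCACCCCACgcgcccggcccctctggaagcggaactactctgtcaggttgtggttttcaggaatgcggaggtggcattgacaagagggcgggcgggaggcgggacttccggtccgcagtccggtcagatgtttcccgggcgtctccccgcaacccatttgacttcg
Fasn (fatty acid synthase, chr11:120824498-120824797, minus strand): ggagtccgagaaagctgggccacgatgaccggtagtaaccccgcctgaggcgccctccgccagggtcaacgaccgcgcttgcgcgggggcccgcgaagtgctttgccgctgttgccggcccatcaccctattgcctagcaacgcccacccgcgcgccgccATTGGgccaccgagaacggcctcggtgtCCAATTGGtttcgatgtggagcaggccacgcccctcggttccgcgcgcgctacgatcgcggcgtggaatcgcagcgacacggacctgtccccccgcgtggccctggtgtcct
Acly (ATP citrate lyase, chr11:100527951-100528250, minus strand): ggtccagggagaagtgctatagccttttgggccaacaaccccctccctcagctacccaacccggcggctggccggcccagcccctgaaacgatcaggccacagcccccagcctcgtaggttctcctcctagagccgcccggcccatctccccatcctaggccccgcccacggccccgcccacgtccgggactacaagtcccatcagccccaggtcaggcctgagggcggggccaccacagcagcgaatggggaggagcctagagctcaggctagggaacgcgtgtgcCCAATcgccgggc
Me1 (malic enzyme, chr9:86695865-86696164, minus strand): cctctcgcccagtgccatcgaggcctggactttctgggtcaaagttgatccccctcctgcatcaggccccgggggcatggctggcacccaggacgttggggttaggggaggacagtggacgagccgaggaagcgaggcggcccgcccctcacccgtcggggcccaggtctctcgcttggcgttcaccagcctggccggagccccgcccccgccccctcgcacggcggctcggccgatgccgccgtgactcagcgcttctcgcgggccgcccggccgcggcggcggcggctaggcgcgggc

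The region over the Hmgcs1 promoter was among the strongest of every library and did not pass the test (limma adjusted p = 0.98). The regions over the sterol elements of Mlxipl and Pcyt1a did not pass the test either, with differences of 0.0124 (limma adjusted p = 0.678) and 0.0497 (limma adjusted p = 0.0579). The promoters of Fasn and Acly lay in regions that rose in the knockout, and that of Me1 in a region that fell.

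The deposited knockout lists held 72935 to 85704 peaks and the control lists 79525 to 112297. Read depth is unknown, so each list was cut to its 72935 strongest peaks and a rank score was used. It runs in even steps between 1, given to a library's strongest peak, and nearly 0, given to the weakest peak kept, and a library with no peak at a region gets 0. Peaks of the 38 genes numbered 228, 223, 216, 213 and 201 in the 5 knockout lists as deposited, against 201 to 275 in the 6 control lists. After the cut they numbered 191 to 201 in knockout and 184 to 194 in control libraries. All 5 epithelial markers (Epcam, Cdh1, Krt8, Krt18 and Nkx2-1) had a peak at a gene end in every library. Pecam1, Cdh5 and Tie1 of endothelium, Pdgfra and Tbx4 of mesenchyme, and Ptprc, Cd53 and Laptm5 of leukocytes had none in any library. The other 3 of 5 mesenchymal markers had a gene-end peak in every library, with a summed score of 1.17 to 1.81 in knockout and 1.4 to 1.7 in control libraries. Of 5 leukocyte markers 1 to 2 had one, with sums of 0.739 to 1.18 in knockout and 0.719 to 1.22 in control libraries. The summed gene-end score of 7 alveolar type 2 markers was 3.49 to 3.88 in knockout and 4.47 to 5.01 in control libraries. Of 5 endothelial markers, 1 had such a peak in knockout and 2 in control libraries, and their summed score was 0.255 to 0.649 in knockout and 0.836 to 1.3 in control libraries. The part of these shifts in the values that follow was not tested. Peaks come from mixed cells, so fewer cells of a type and less open chromatin per cell cannot be told apart.

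Open chromatin at lipid synthesis genes changed in both directions in the knockout, about as often as elsewhere in the genome. Of the 218 regions, 34 were lower and 46 higher at a limma adjusted p below 0.05, that is 15.6% and 21.1%. Over all 83263 regions, 20.8% were lower and 17.0% higher, and 37.8% were called in either direction, against 36.7% of the member regions. Which direction was more frequent depended on the scaling. With the lists as deposited, 51 of 254 regions were lower (20.1%) and 34 higher (13.4%), against 24.9% lower and 12.04% higher of all regions. With peaks of a -log10 q of at least 5, 49 were lower and 33 higher of 241 (20.3% and 13.7%, against 25.3% and 12.5% of all). The median difference between knockout and control was -0.0037 over the member regions and -0.0208 over all regions.

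Scores of the genotypes did not overlap in 43 member regions. In 18 every knockout library lay below every control (8.26%, against 12.1% of all regions), and in 25 every knockout lay above (11.5%, against 10.9%). A peak in every knockout and no control library was found at 6 member regions (2.75%, against 3.89% of all), and a peak in every control and no knockout library at 3 (1.38%, against 2.94%). Presence of a peak, compared by Fisher's exact test, differed at 23 of 49 testable member regions (46.9%, against 47.2% of all testable regions), with more knockout libraries at 13 and more control libraries at 10. Limma had called 21 of the 23. Where no library of a genotype had a peak, all scores of that genotype were assigned, and their lack of spread was not measured. Such a region passed the filter of 3 libraries through the other genotype alone. Its limma p may therefore be too small, and should be read as a difference in presence of a peak. Regions of this kind are named below at Sc5d, Cyp51, Acly, Me1, Elovl5, Elovl6, Acsl3, Acsl4 and Abca1, and at genes of the other pathway lists. Regions with a peak in all 11 libraries made up 51.8% of the member regions and 43.8% of all regions.

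**Figure D1:**
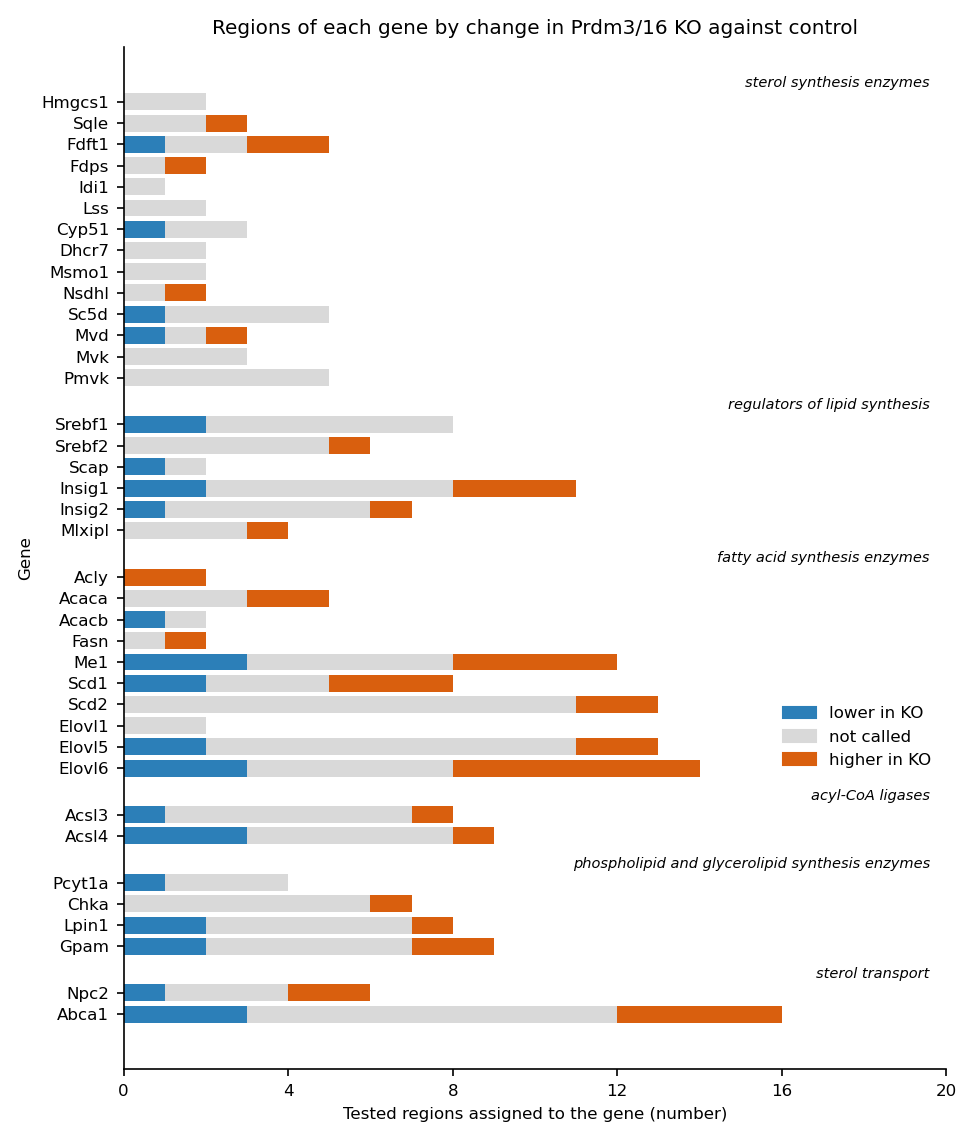
Tested regions assigned to each of the 38 genes (horizontal axis, number), grouped by role, with regions called lower in the knockout in blue, not called in grey and called higher in orange. Abca1 had the most regions, 16, of which 3 were lower and 4 higher, and 8 genes had no called region.

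Both lower and higher regions were found at 14 of the 38 genes. Lower regions alone were found at 6 genes and higher regions alone at 10. No region was called at Hmgcs1, Idi1, Lss, Dhcr7, Msmo1, Mvk, Pmvk and Elovl1. Of these 8 genes, 7 encode enzymes of sterol synthesis, and Elovl1 encodes an elongase of very long chain fatty acids. The same split was not computed over all genes, so these counts of genes have no like background.

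Each gene had a region with a peak in all 11 libraries. The region with the highest mean score lay within 1 kb of a gene end at 23 genes, inside the body at 11 and outside at 4. Its mean score over the 11 libraries was 0.9 or more at 21 genes and ranged from 0.506 at Pmvk, a mevalonate pathway kinase, to 1.00 at Msmo1, a sterol methyl oxidase. Of these 38 highest regions, 4 were called lower and 6 higher. Over all regions 20.8% were lower and 17.0% higher, and over those within 1 kb of a gene end 9.58% and 6.58%. The share among the highest regions of all genes was not computed, so the 38 have no like background.

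Enzymes of sterol synthesis had few called regions, but many of their regions lay at gene ends, where calls were fewer over the genome. Of 40 regions at 14 genes, 4 were lower (10.0%) and 6 higher (15.0%), at 7 genes, against the 20.8% and 17.0% of all regions. With the lists as deposited the counts were 6 lower and 3 higher of 43 (14.0% and 6.98%, against 24.9% and 12.04% of all). Hmgcs1, which makes HMG-CoA, had its highest region at 119689965 to 119690364 on chromosome 13, with a score of 0.999 in both groups. Idi1, which isomerizes isopentenyl diphosphate, scored 0.998 in both groups. Cyp51, the lanosterol demethylase, had its highest region at 0.996 in both groups. These start regions were near the top of the score in every library, where only small differences can be seen. Of the 40 regions, 16 lay within 1 kb of a gene end, and 2 of these were called, both higher. Gene-end regions made up 23.2% of all regions, and 9.58% of them were lower and 6.58% higher. The part of location in the low count at sterol enzymes was not tested.

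Small rises at the gene end were called for Fdps, farnesyl diphosphate synthase, and Mvd, mevalonate decarboxylase. The Fdps region at 89101886 to 89102285 on chromosome 3 scored 0.982 ± 0.0095 in knockout and 0.96 ± 0.0105 in control libraries (SD, n = 5 and 6, limma adjusted p = 0.0277). The Mvd region at 122443307 to 122443706 on chromosome 8 scored 0.959 ± 0.0098 in knockout and 0.932 ± 0.0119 in control libraries (SD, n = 5 and 6, limma adjusted p = 0.0169). A neighbouring Mvd region, 1162 bp from the gene, fell, at 0.563 in knockout and 0.716 in control libraries (limma adjusted p = 0.0118).

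The greatest gain of the whole list lay inside Nsdhl, an X-linked dehydrogenase that helps to remove methyl groups from sterols. The region at 72940085 to 72940484 on chromosome X scored 0.81, 0.837, 0.889, 0.869 and 0.844 in the knockout libraries. Among controls, replicate 2 scored 0.142 and the other 5 had no peak. Every knockout library thus lay far above every control, and the difference was 0.826 (limma adjusted p = 3.15e-08). The authors' fold enrichment of these peaks was 18.9 to 22.6 in knockout lists and 8.77 in the list of control replicate 2. Peaks on the Y chromosome numbered 1 to 9 in knockout and 3 to 20 in control lists as deposited, and the part of fetal sex in values of X-linked genes was not tested.

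Over the start of Nsdhl the genotypes were close. The region there, at 72918232 to 72918631, was assigned to the adjoining gene Cetn2 and scored 0.971 ± 0.0072 in knockout and 0.969 ± 0.0109 in control libraries (SD, n = 5 and 6, limma adjusted p = 0.849). The next window, which counts for Nsdhl, takes the same peak in all controls and in knockout replicates 2 and 3, and a smaller separate peak at 0.0443 to 0.153 in the other 3. Its difference of -0.51 did not pass the test (limma adjusted p = 0.0547). In all, 53 of the 218 member regions shared a peak with a neighbouring region in at least 1 library (24.3%, against 23.4% of all regions). Of the 53, 16 were called, against 4657 of the 19519 such regions of the whole genome.

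Fdft1, squalene synthase, and Sqle, squalene epoxidase, act in turn at the entry to sterols proper. A region inside Fdft1 at 63172453 to 63172852 on chromosome 14 scored 0.336, 0.556, 0.362, 0.392 and 0.666 in the knockout libraries, against no peak in 4 controls and at most 0.108. It rose by 0.441 with no overlap between groups (limma adjusted p = 1.36e-04). Another Fdft1 region, at 63164254 to 63164653, scored 0.27, 0.136, 0.445, 0.132 and 0.363 in knockout libraries, against 0.568 to 0.71 in controls with a median of 0.679. It fell by 0.394 (limma adjusted p = 1.73e-04), while the adjoining window, at 63164762 to 63165161, rose by 0.139 (limma adjusted p = 0.0124). With overlapping peaks merged the 2 windows formed 1 region, and its difference was 0.07 upwards (limma adjusted p = 0.0481). Sqle had its highest region at a gene end, at 0.987 ± 0.0061 in knockout and 0.991 ± 0.0033 in control libraries (SD, n = 5 and 6), and 1 of its 3 regions, 16306 bp away, was higher (difference 0.247, limma adjusted p = 0.0321).

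Sc5d, a sterol desaturase, and Cyp51 each lost a distant region. The Sc5d region at 42208537 to 42208936 on chromosome 9, 42856 bp from the gene, had no peak in any knockout library. Controls scored 0.175 to 0.539 with a median of 0.425 (difference -0.378, limma adjusted p = 4.73e-04). The Cyp51 region at 4135204 to 4135603 on chromosome 5, 30706 bp away, likewise had no peak in any knockout library. Of the controls, replicate 2 had no peak and the other 5 scored 0.341 to 0.473 (difference -0.323, limma adjusted p = 0.00405). Neither region had a knockout peak in the lists as deposited.

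The regulators of lipid synthesis had 6 lower and 6 higher regions of 38 (15.8% each, against 20.8% and 17.0% of all regions). All 6 genes had a called region. Insig1, which retains SCAP in the endoplasmic reticulum, had the most, with 2 lower and 3 higher of 11. Its start region at 28070961 to 28071360 on chromosome 5 scored 0.911 ± 0.0343 in knockout and 0.908 ± 0.0384 in control libraries (SD, n = 5 and 6, limma adjusted p = 0.929). Just inside the gene, 630 bp from the start, the region at 28071843 to 28072242 scored 0.678, 0.648, 0.673, 0.696 and 0.785 in knockout libraries, against 0.122 to 0.388 in controls with a median of 0.33. Every knockout library lay above every control (difference 0.398, limma adjusted p = 5.38e-05).

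The next Insig1 window, at 28072249 to 28072648, takes the peaks of its neighbours in 4 knockout libraries and in control replicate 6. It scored 0.952, 0.648, 0.939, 0.696 and 0.2 in knockout libraries, and had no peak in 5 controls and 0.88 in control replicate 6. The groups overlap, and the difference of 0.54 (limma adjusted p = 0.0347) was 0.687 without control replicate 6 and was 0.00272 with overlapping peaks merged (limma adjusted p = 0.923). Nor was it called with the lists as deposited (0.28, limma adjusted p = 0.122), with a -log10 q of at least 5 (0.0807, limma adjusted p = 0.779) or with peaks ranked by fold enrichment (0.294, limma adjusted p = 0.102). It was called neither without any single one of control replicates 1 to 5 nor without knockout replicate 1, 2, 3 or 4. Upstream, regions 10746 and 15872 bp from Insig1 fell, by 0.232 (limma adjusted p = 8.97e-05) and by 0.262 (limma adjusted p = 0.0016). The region at 28398 bp rose, at 0.929 ± 0.0159 in knockout and 0.818 ± 0.0425 in control libraries (SD, n = 5 and 6, limma adjusted p = 3.50e-04). Insig1 thus had falls lying between rises.

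Srebf1, which encodes the fatty acid form of SREBP, had 2 lower regions of 8 and none higher. The region at 60213289 to 60213688 on chromosome 11, inside the gene, scored 0.166, 0.101, 0 (no peak), 0.116 and 0 (no peak) in knockout libraries, against 0.3 to 0.531 in controls with a median of 0.453. Every knockout library lay below every control (difference -0.353, limma adjusted p = 3.41e-04), but with peaks ranked by fold enrichment the difference was -0.0923 and not called (limma adjusted p = 0.11). Its highest region, at an internal start, scored 0.822 ± 0.0632 in knockout and 0.789 ± 0.0912 in control libraries (SD, n = 5 and 6, limma adjusted p = 0.562). Srebf2, which encodes the sterol form of SREBP, rose slightly at its start, at 0.917 ± 0.0271 in knockout and 0.869 ± 0.0265 in control libraries (SD, n = 5 and 6, limma adjusted p = 0.0246).

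Scap fell at 1 of 2 regions. The intragenic region at 110380710 to 110381109 on chromosome 9 scored 0.186 and 0.382 in knockout replicates 1 and 4 and had no peak in the other 3, against 0.467 to 0.696 in 5 controls and no peak in control replicate 5. The groups overlap, and the difference of -0.342 (limma adjusted p = 0.0295) was no longer called without control replicate 1, 2, 3 or 4 or without knockout replicate 2, 3 or 5, with limma adjusted p up to 0.0706. It was also lost with lists cut to 36467 peaks (-0.0881, limma adjusted p = 0.26) and with peaks ranked by fold enrichment (-0.464, limma adjusted p = 0.0551). Insig2, the second INSIG gene, had 1 lower and 1 higher region of 7. Its highest region, near an internal start, fell, at 0.957 ± 0.0231 in knockout and 0.988 ± 0.0048 in control libraries (SD, n = 5 and 6, limma adjusted p = 0.0181). Mlxipl, which encodes the glucose-sensing factor ChREBP, rose inside the gene at 135118568 to 135118967 on chromosome 5. The scores were 0.78, 0.856, 0.768, 0.791 and 0.799 in knockout libraries, against 0.167 to 0.566 in controls with a median of 0.476 (difference 0.364, limma adjusted p = 5.08e-04).

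Fatty acid synthesis enzymes had more rises than falls on lists of equal length, but not with the lists as deposited. Of 73 regions at 10 genes, 22 were higher (30.1%, against 17.0% of all regions) and 11 lower (15.1%, against 20.8%). With the lists as deposited, 15 were higher and 18 lower of 83 (18.1% and 21.7%, against 12.04% and 24.9% of all regions), so the count of falls passed that of rises while both shares stayed on the same side of the background. With scores centred per library, 24 were higher and 9 lower.

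Acly, which makes cytosolic acetyl-CoA from citrate, rose at both of its regions. The region inside the gene at 100479147 to 100479546 on chromosome 11 scored 0.696, 0.811, 0.772, 0.501 and 0.708 in knockout libraries, and no control library had a peak, also in the lists as deposited. The difference was 0.698 (limma adjusted p = 7.32e-07), but all control scores were assigned, so this p takes in a spread that was not measured. Presence of a peak differed by Fisher's exact test (adjusted p = 0.0094). The start region at 100527801 to 100528200, over the promoter printed above, scored 0.92 ± 0.02 in knockout and 0.86 ± 0.0474 in control libraries (SD, n = 5 and 6, limma adjusted p = 0.0338), and the groups overlapped there.

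Fasn, which builds palmitate, rose at its start. The region at 120824455 to 120824854 on chromosome 11 scored 0.741, 0.721, 0.817, 0.667 and 0.707 in knockout libraries, against 0.463 to 0.651 in controls with a median of 0.586. Every knockout library lay above every control (difference 0.16, limma adjusted p = 0.00922). The adjoining region, 359 bp from the start, did not pass the test, at 0.801 ± 0.0847 in knockout and 0.729 ± 0.0756 in control libraries (SD, n = 5 and 6, limma adjusted p = 0.195).

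The acetyl-CoA carboxylases make malonyl-CoA, Acaca in the cytosol and Acacb at mitochondria. Acacb had 2 tested regions, and the one at 114155233 to 114155632 on chromosome 5 fell. It scored 0.541, 0.408, 0.425, 0.313 and 0 (no peak) in knockout libraries, against 0.791 to 0.868 in controls with a median of 0.821 (difference -0.489, limma adjusted p = 1.33e-04). Acaca rose at 2 of 5 regions and fell at none. The higher-scoring of the rises was 0.929 ± 0.0089 in knockout and 0.883 ± 0.0293 in control libraries (SD, n = 5 and 6, limma adjusted p = 0.0155).

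Me1, a source of NADPH for fatty acid synthesis, had the greatest loss of the list. The intragenic region at 86638843 to 86639242 on chromosome 9 scored 0.0795, 0.185 and 0.172 in knockout replicates 1, 2 and 4 and had no peak in the other 2. Controls scored 0.771 to 0.898 with a median of 0.85, so the groups were far apart (difference -0.753, limma adjusted p = 7.5e-08). The authors' fold enrichment there was 6.41 to 8.59 in 3 knockout lists and 17.6 to 21.8 in 6 control lists.

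A second intragenic Me1 region, at 86647942 to 86648341, had no peak in any knockout library and scored 0.208 to 0.55 in controls with a median of 0.432 (difference -0.425, limma adjusted p = 1.37e-04). Another, at 86594186 to 86594585, went the other way, with 0.811, 0.883, 0.9, 0.867 and 0.916 in knockout libraries, against 0 (no peak) to 0.404 in controls with a median of 0.314 (difference 0.591, limma adjusted p = 7e-06). Of the 12 Me1 regions, 3 were lower and 4 higher. The start region fell slightly, at 0.804 ± 0.0255 in knockout and 0.861 ± 0.0442 in control libraries (SD, n = 5 and 6, limma adjusted p = 0.0482), and a region 6096 bp from the gene rose by 0.276 (limma adjusted p = 3.64e-06).

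Elovl6 and Elovl5 encode elongases, of long-chain saturated and of polyunsaturated fatty acids. Elovl6 had the most rises of any member, with 6 higher and 3 lower of 14 regions. Inside the gene, the region at 129588727 to 129589126 on chromosome 3 scored 0.957, 0.915, 0.919, 0.954 and 0.955 in knockout libraries, against 0 (no peak) to 0.453 in controls with a median of 0.372 (difference 0.644, limma adjusted p = 8.86e-06). Regions at 129565989 to 129566388 and at 129554514 to 129554913 had a peak in every knockout and no control library. The first scored 0.429 to 0.619 in the knockout (difference 0.51, limma adjusted p = 4.27e-06), and the second 0.384 to 0.524 (difference 0.462, limma adjusted p = 6.06e-06). Upstream by 28595 bp, a region scored 0.748, 0.667, 0.659, 0.473 and 0.83 in knockout libraries, against 0 (no peak) to 0.39 in controls with a median of 0.252 (difference 0.44, limma adjusted p = 4.62e-04). The 3 falls at Elovl6, of -0.0435 to -0.142, were smaller than every rise there but that of 0.12.

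At Elovl5, 2 of 13 regions were lower and 2 higher. The region at 77954491 to 77954890 on chromosome 9 scored 0.691, 0.504, 0.78, 0.763 and 0.579 in knockout libraries and had no peak in any control (difference 0.663, limma adjusted p = 1.14e-06). In the same gene body, the region at 77969546 to 77969945 had a peak in knockout replicate 1 alone, at 0.146. Of the controls, replicate 5 had no peak there and the other 5 scored 0.519 to 0.712 (difference -0.482, limma adjusted p = 0.00321). A further region fell with no overlap between groups, at 0.351 to 0.704 in knockout and 0.781 to 0.898 in control libraries (difference -0.273, limma adjusted p = 7.51e-04). The start region rose slightly, at 0.92 in knockout and 0.876 in control libraries (limma adjusted p = 0.0172).

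**Figure D2:**
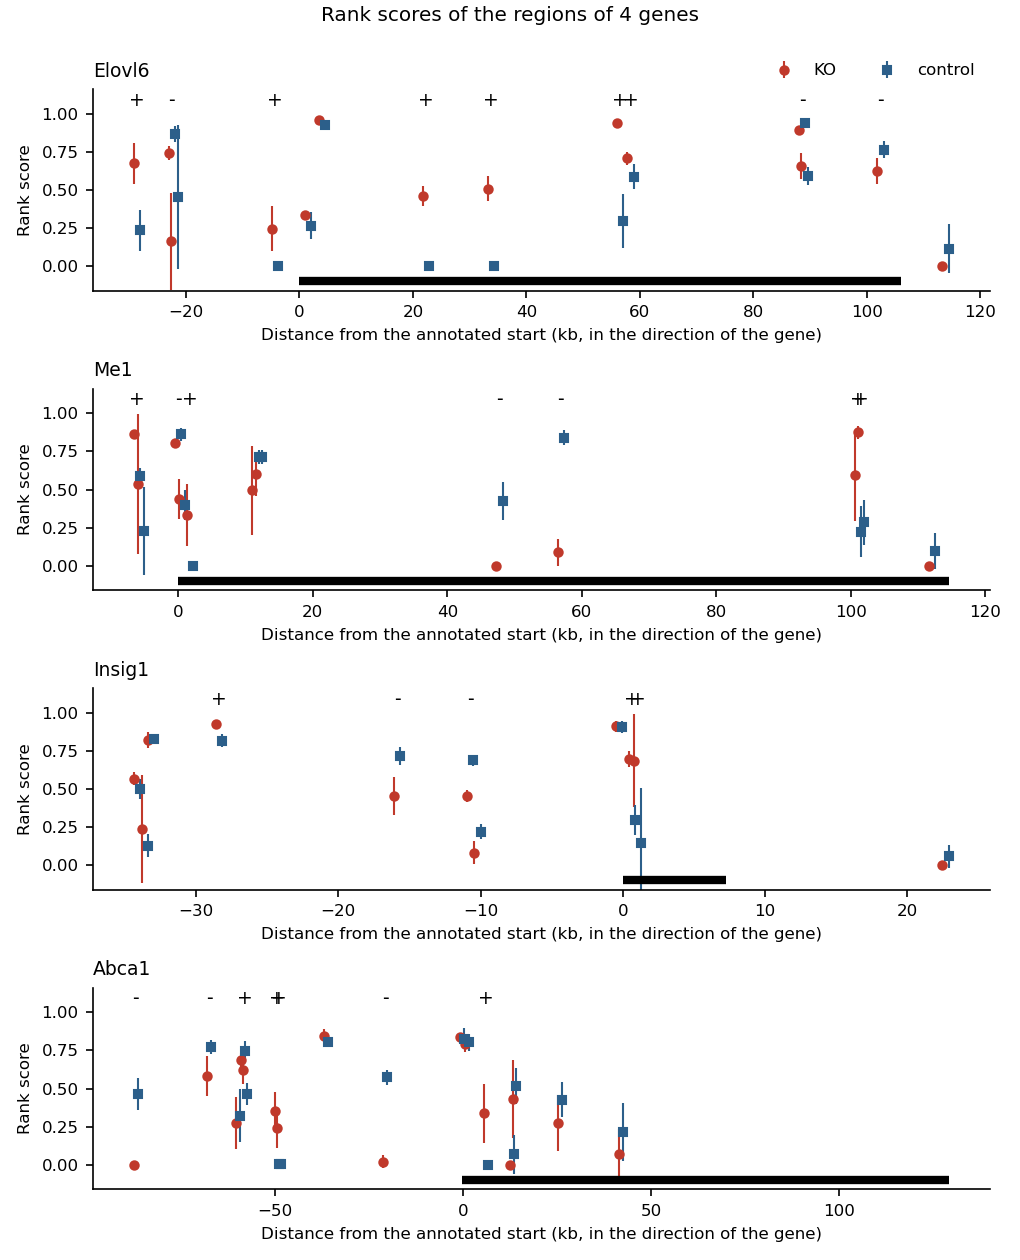
Mean rank score (vertical axis, 0 to 1, bars 1 SD) of each tested region by distance from the annotated start (horizontal axis, kb, in the direction of the gene) at Elovl6, Me1, Insig1 and Abca1, with knockout as red circles (n = 5) and control as blue squares (n = 6). The black bar is the gene body, and plus and minus signs mark regions called higher and lower in the knockout, such as the 6 rises and 3 falls at Elovl6.

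Scd1 and Scd2, neighbouring genes for the desaturases that make oleate, had 5 rises between them. At Scd1, 3 of 8 regions were higher and 2 lower. The region at 44377928 to 44378327 on chromosome 19, 16323 bp away, scored 0.589, 0.66, 0.558, 0.552 and 0.529 in knockout libraries, against 0.0746 in control replicate 2 and no peak in the other 5 (difference 0.565, limma adjusted p = 8.63e-07). On the other side of the gene, the highest Scd1 region, 14702 bp away, fell, at 0.784 ± 0.0229 in knockout and 0.884 ± 0.0142 in control libraries (SD, n = 5 and 6, limma adjusted p = 5.96e-05). At Scd2, 2 of 13 regions were higher and none lower. Its gene-end region at 44293822 to 44294221 scored 0.702, 0.675, 0.68, 0.739 and 0.769 in knockout libraries, against 0 (no peak) to 0.442 in controls with a median of 0.385 (difference 0.389, limma adjusted p = 7.15e-04).

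Acyl-CoA ligases activate fatty acids with coenzyme A. Of 17 regions, 4 were lower (23.5%) and 2 higher (11.8%), against 20.8% and 17.0% of all regions. Acsl3, which serves lipid droplets and phospholipid synthesis, gained a region at 78649269 to 78649668 on chromosome 1, 8357 bp away and equally near to Utp14b. It scored 0.574, 0.517, 0.487, 0.505 and 0.582 in knockout libraries and had no peak in any control (difference 0.533, limma adjusted p = 9.59e-07), but with lists cut to 36467 peaks the difference was 0.0714 and not called (limma adjusted p = 0.12). Acsl4, an X-linked ligase that prefers arachidonate, gained a region at 142430395 to 142430794 on chromosome X, with 0.194 to 0.456 in knockout libraries and no peak in any control (difference 0.362, limma adjusted p = 1.78e-04). The remaining 3 called Acsl4 regions were lower, with differences of -0.275 to -0.145. Start regions of both genes did not pass the test, at 0.965 in knockout and 0.96 in control libraries for Acsl3 (limma adjusted p = 0.666) and at 0.929 in knockout and 0.918 in control libraries for Acsl4 (limma adjusted p = 0.505).

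Enzymes of phospholipid and glycerolipid synthesis had 5 lower (17.9%) and 4 higher (14.3%) of 28 regions, against 20.8% and 17.0% of all regions. Pcyt1a makes CDP-choline, the rate-limiting step of phosphatidylcholine synthesis. Its region at 32433101 to 32433500 on chromosome 16, 2070 bp from a start, scored 0.374, 0.352, 0.387, 0.491 and 0 (no peak) in knockout libraries, against 0.561 to 0.678 in controls with a median of 0.653 (difference -0.312, limma adjusted p = 0.0043). Its start region, over the sterol element, was 0.884 ± 0.0189 in knockout and 0.834 ± 0.0425 in control libraries (SD, n = 5 and 6) and was not called. Chka, the choline kinase that precedes it, had 1 higher region of 7, 9092 bp away (difference 0.0772, limma adjusted p = 0.0484).

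Lpin1 makes diacylglycerol from phosphatidate, and Gpam adds the first acyl chain to glycerol phosphate. Lpin1 had 2 lower and 1 higher region of 8. The lower region at 16618835 to 16619234 on chromosome 12, inside the gene, scored 0.435, 0.609, 0.359, 0.494 and 0.505 in knockout libraries, against 0.757 to 0.836 in controls with a median of 0.788 (difference -0.308, limma adjusted p = 3.28e-05). Gpam had 2 lower and 2 higher of 9 regions. The highest, at 55134556 to 55134955 on chromosome 19, fell, with 0.469, 0.462, 0.622, 0.584 and 0.496 in knockout libraries, against 0.713 to 0.815 in controls with a median of 0.782 (difference -0.249, limma adjusted p = 7.49e-05). Gpam regions 4405 and 6058 bp from the gene rose, by 0.321 and 0.252 (limma adjusted p = 0.00361 and 0.0156).

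Sterol transport genes had 4 lower (18.2%) and 6 higher (27.3%) of 22 regions, against 20.8% and 17.0% of all regions. With replicate number as a further term in the fit, 5 were lower and 3 higher (22.7% and 13.6%, against 18.1% and 14.9% of all). Abca1, which exports cholesterol to apolipoproteins and is induced by sterols, had 3 lower and 4 higher of 16. The region at 53180352 to 53180751 on chromosome 4, 20563 bp from the gene, had a peak in knockout replicate 2 alone, at 0.0945, against 0.491 to 0.614 in controls with a median of 0.593 (difference -0.556, limma adjusted p = 1.1e-06). A more distant region at 53246523 to 53246922, 86734 bp away, had no peak in any knockout library and 0.328 to 0.586 in controls with a median of 0.492 (difference -0.465, limma adjusted p = 3.13e-05), a difference that was -0.05 and not called with lists cut to 36467 peaks (limma adjusted p = 0.267). Between them, adjoining windows 48838 and 49299 bp away rose by 0.237 and 0.347 (limma adjusted p = 0.00541 and 4.61e-04), and they share peaks in control replicates 2 and 4. The start region did not pass the test, at 0.838 ± 0.0227 in knockout and 0.828 ± 0.069 in control libraries (SD, n = 5 and 6, limma adjusted p = 0.829).

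Npc2 carries cholesterol out of lysosomes. The intragenic region at 84764681 to 84765080 on chromosome 12 had a peak in knockout replicate 3 alone, at 0.0523, against no peak in control replicate 5 and 0.3 to 0.585 in the other 5 controls (difference -0.384, limma adjusted p = 0.00493). The call was lost with peaks ranked by fold enrichment (-0.0873, limma adjusted p = 0.152) and with lists cut to 36467 peaks (-0.0469, limma adjusted p = 0.309). Its start region rose slightly, with 0.977 to 0.989 in knockout and 0.95 to 0.973 in control libraries and no overlap (difference 0.0214, limma adjusted p = 0.0167).

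**Figure D3:**
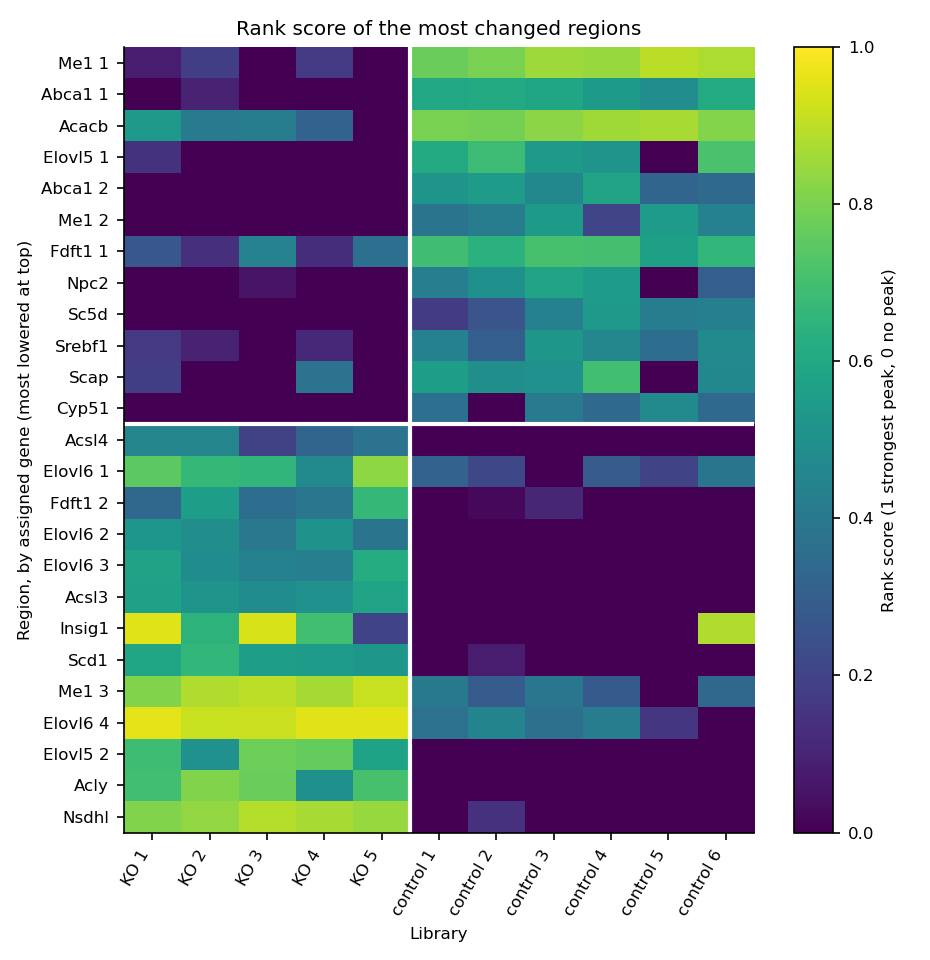
Rank score (colour, 0 to 1) in each library (columns, knockout left and control right) of the 12 regions with the greatest called fall, the 12 with the greatest called rise and the Acsl4 region with a peak in every knockout and no control library (rows, most lowered at the top). Rows of a gene are numbered from the most lowered, and the Nsdhl region at the bottom runs from 0.81 to 0.889 in the knockout and is at most 0.142 in control libraries.

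At gene ends the calls were mostly small rises on lists of equal length, and nearly even in direction with the lists as deposited. Of 41 member regions within 1 kb of a gene end, 9 were higher and 1 lower (22.0% and 2.44%), against 6.58% and 9.58% of all 19347 such regions. Inside gene bodies 18 of 95 were higher and 18 lower (18.9% each, against 19.0% and 24.8% of all such regions). Outside, 19 of 82 were higher and 15 lower (23.2% and 18.3%, against 19.5% and 23.0%). With the lists as deposited, 3 gene-end regions were higher and 2 lower of 49, against 2.57% and 12.8% of all such regions. With a -log10 q of at least 5, 3 were higher and 3 lower of 44, and limma without the trend and robust options called 3 higher and 1 lower of 41. The median size of the 10 called differences at gene ends was 0.0526, against 0.184 at called gene-end regions of all genes. Inside the genes it was 0.347, against 0.298 over all such regions. Member gene-end regions scored higher on average, at 0.737 in knockout and 0.75 in control libraries, against 0.57 and 0.603 at all gene ends. The part of this higher score in the counts and sizes was not tested.

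When all regions of a gene were averaged, on lists of equal length, 5 of the 38 genes passed the test. At the gene level 2 were lower and 3 higher, 13.2% of the 38, against 28.8% of 16378 genes. Acly averaged 0.809 ± 0.0546 in knockout and 0.43 ± 0.0237 in control libraries (SD, n = 5 and 6, limma adjusted p = 1.85e-06). Elovl6 averaged 0.566 ± 0.0333 in knockout and 0.432 ± 0.0424 in control libraries (SD, n = 5 and 6, limma adjusted p = 0.00251). Fasn averaged 0.766 ± 0.0332 in knockout and 0.65 ± 0.0688 in control libraries (SD, n = 5 and 6, limma adjusted p = 0.0205). The averaged scores of these 3 genes were higher in all 5 knockout libraries than in all 6 controls. The share of all genes whose averaged scores do not overlap between genotypes was not computed.

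Acacb averaged 0.589 ± 0.1 in knockout and 0.842 ± 0.0137 in control libraries (SD, n = 5 and 6, limma adjusted p = 4.84e-04). Lpin1 averaged 0.492 ± 0.0246 in knockout and 0.591 ± 0.0144 in control libraries (SD, n = 5 and 6, limma adjusted p = 0.00316). Both averaged scores were lower in all 5 knockout libraries than in all 6 controls. Acly, Fasn and Acacb had 2 tested regions each, so their averages are no support separate from those regions. Beside the Acacb region that fell, the other differed by -0.0177 (limma adjusted p = 0.499). Taking for each gene only its highest region within 1 kb of a gene end, 30 genes could be tested, none was lower, and Elovl5, Fdps, Mvd, Npc2 and Scd2 were higher (16.7% called, against 12.6% of 13236 genes). Acly, Fasn and Lpin1 were not called there, and Acacb and Elovl6 had no tested gene-end region.

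The remaining 33 genes did not pass the test at the gene level. Their differences ran from -0.187 at Cyp51 (limma adjusted p = 0.11) to 0.158 at Nsdhl (limma adjusted p = 0.21), and the genotypes overlapped at all of them. At the other sterol enzymes the knockout mean was lower at Dhcr7 (-0.141), Mvd (-0.0775), Fdps (-0.0728), Sc5d (-0.0396), Lss (-0.036), Hmgcs1 (-0.0346) and Pmvk (-0.026), differences that were not called. It was higher, also without a call, at Sqle (0.0593), Msmo1 (0.0407), Mvk (0.028), Fdft1 (0.0152) and Idi1 (0.0002). Several of the wide spreads come with windows that share a neighbour's peak in some libraries. Dhcr7, for example, averaged 0.522 ± 0.0389 in knockout and 0.663 ± 0.243 in control libraries (SD, n = 5 and 6), and Nsdhl 0.654 ± 0.244 in knockout and 0.496 ± 0.025 in control libraries (SD, n = 5 and 6).

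Among the regulators, the uncalled gene-level differences were -0.156 at Scap, -0.0392 at Srebf1, -0.0308 at Srebf2, -0.0071 at Insig2, 0.0481 at Insig1 and 0.0641 at Mlxipl. Those of the other fatty acid enzymes were -0.0852 at Elovl1, -0.0323 at Elovl5, -0.0154 at Scd2, -0.0041 at Acaca, 0.0199 at Me1 and 0.0239 at Scd1. At Elovl1 the spread was wide, with 0.708 ± 0.224 in knockout and 0.793 ± 0.179 in control libraries (SD, n = 5 and 6). Acsl3 differed by 0.0739 and Acsl4 by -0.0399, Pcyt1a by -0.0743, Chka by 0.0343 and Gpam by -0.0154, and Abca1 by -0.0409 and Npc2 by -0.0482. Me1 and Abca1, each with 3 falls and 4 rises, were thus not called in the average, while Elovl6, with 3 falls and 6 rises, was.

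**Figure D4:**
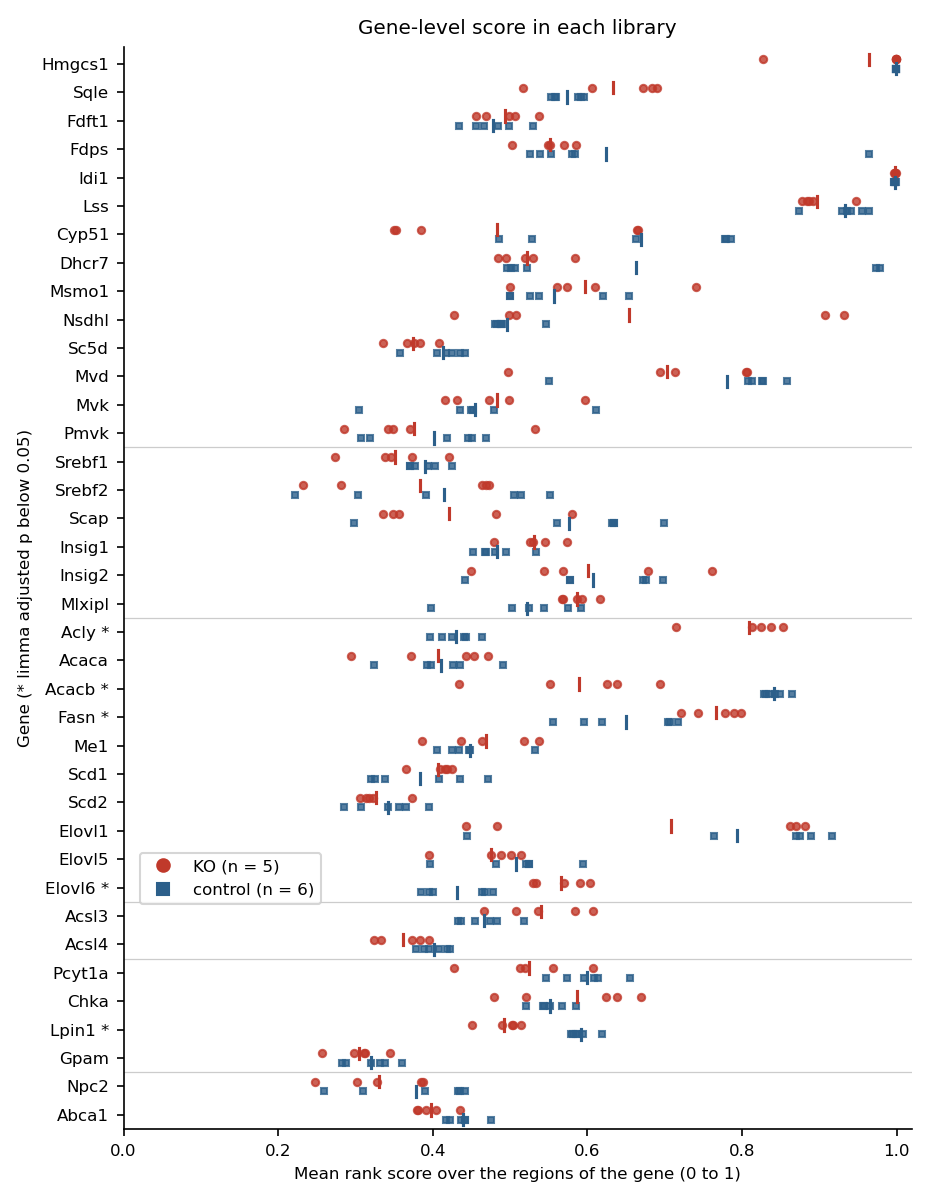
Gene-level score, the mean rank score over a gene's tested regions (horizontal axis, 0 to 1), in each knockout (red circles, n = 5) and control (blue squares, n = 6) library for the 38 genes, with vertical ticks at the group means and grey lines between roles. The genes with an asterisk, Acly, Acacb, Fasn, Elovl6 and Lpin1, have no overlap between the groups. The share of all genes without overlap was not computed.

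Other genes of the same pathways, read from the same fit, were called at 29.4 to 35.8% of their regions in 3 lists, below the 37.8% of all regions. Of 67 regions at 20 other genes of sterol synthesis and uptake, 16 were lower and 7 higher (23.9% and 10.4%). Of 85 regions at 21 other genes of fatty acid synthesis and activation, 14 were lower and 11 higher (16.5% and 12.9%). Of 162 regions at 29 other phospholipid and glycerolipid genes, 35 were lower and 23 higher (21.6% and 14.2%). Falls also outnumbered rises over all regions, at 20.8% and 17.0%. Lipa, the lysosomal acid lipase that frees cholesterol from its esters, lost an intragenic region at 34517153 to 34517552 on chromosome 19, with no peak in 5 knockout libraries and 0.745 ± 0.0854 in 6 controls (SD, limma adjusted p = 1.29e-07). Soat1, which esterifies cholesterol, gained an intragenic region, at 0.497 ± 0.0915 in 5 knockout libraries and no peak in 6 controls (SD, limma adjusted p = 6.89e-06). Lbr, a sterol reductase of the nuclear envelope, had 5 lower of 6 regions and none higher. The Lbr region with the smallest p averaged 0.577 ± 0.0487 in knockout and 0.833 ± 0.0286 in control libraries (SD, n = 5 and 6, limma adjusted p = 4.67e-06).

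Of the fatty acid genes, Hsd17b12 and Elovl7, which act in chain elongation, each gained an intragenic region, at 0.561 ± 0.035 and 0.483 ± 0.0703 in 5 knockout libraries, with no peak in 6 controls (SD, limma adjusted p = 5.43e-07 and 4.69e-06). Acsl1, another acyl-CoA ligase, lost a region, with no peak in 5 knockout libraries and 0.578 ± 0.0642 in 6 controls (SD, limma adjusted p = 8.73e-07), yet 5 of its 10 regions were higher and 2 lower. Among acyltransferases of glycerolipid synthesis, Agpat2 rose near the gene, at 0.666 ± 0.026 in knockout and 0.0584 ± 0.046 in control libraries (SD, n = 5 and 6, limma adjusted p = 3.69e-07). Agpat3 lost an intragenic region, with no peak in 5 knockout libraries and 0.591 ± 0.066 in 6 controls (SD, limma adjusted p = 7.43e-07). Lpcat1, an acyltransferase that remodels phosphatidylcholine in type 2 cells, had 4 higher and 3 lower of 12 regions. Its lowered region at 73448738 to 73449137 on chromosome 13 averaged 0.0184 ± 0.0412 in knockout and 0.589 ± 0.0588 in control libraries (SD, n = 5 and 6, limma adjusted p = 1.09e-06).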

How the data were processed

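ATAC-seq peak lists of 5 Prdm3/16KO and 6 control libraries were used as deposited, with groups taken from the sample titles. Each peak carried the authors' fold enrichment, a -log10 p and a -log10 q at its summit and a score of unknown meaning that was not used; these values were deposited by the authors, per the file layout of a peak caller's narrowPeak format. The submitters' processing notes name MACS2, DiffBind 3, deepTools and the mm10 build, without their roles, and the aligner and options are not given in those notes. Peaks were listed per library, and read depth and counts are not in the lists, so no interval for counting error can be given.

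Each list was cut to its 72935 strongest peaks by -log10 p and converted to rank scores. The cut kept 85.1 to 100.0% of the knockout lists and 64.9 to 91.7% of the control lists. Windows of 400 bp were centred on summits, strongest first and not overlapping. A library had a region when a peak overlapped it by at least 100 bp. Where 3 or more libraries had a peak, the region was tested by limma (version 3.58.1, R 4.3.3) with genotype as the sole term and its trend and robust settings on, with Benjamini-Hochberg adjustment over all 83263 regions at 0.05. Genes were tested on the mean score of their regions, and presence by Fisher's exact test. The fits were tested on simulated data. Gene bodies and promoters came from RefSeq (GRCm38.p6, the coordinates of mm10).

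Regions named are the 12 greatest called falls and rises and those with a peak in every library of a single group. Every member is given at the gene level. Of the other pathway lists, 3 genes each with the smallest p are named. Further called regions were named after their values were seen. The members and lists were chosen with earlier results of these data known. Alternatives covered the length, threshold and ranking of lists, the overlap, filter and merging of regions, assignment distance, centring, model, replicate block and leaving out each library.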

Additional observations from a re-analysis of the deposited data

Results flagged for a closer look

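In 23 of 118 groups of libraries, 1 library lay far from the others of its genotype by Dixon's criterion. With normally distributed values chance meets it in about 1 of 20 groups. Many of the flagged groups are regions where 1 library has a peak and the rest have none, or the reverse. A group with a peak in 1 library alone always meets the criterion, so the count cannot be read against that rate.

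Among regions, knockout replicate 2 scored 0.0945 at Abca1 53180352, where the other knockout libraries had no peak. Knockout replicate 1 scored 0.146 at Elovl5 77969546, and knockout replicate 3 scored 0.0523 at Npc2 84764681, again with no peak in the other knockout libraries. Control replicate 5 was at 0 at Elovl5 77969546, at Scap 110380710 and at Me1 86594186, where the other controls scored 0.519 to 0.712, 0.467 to 0.696 and 0.282 to 0.404. Control replicate 2 was at 0 at Cyp51 4135204, where the others scored 0.341 to 0.473. The same library scored 0.142 at Nsdhl 72940085 and 0.0746 at Scd1 44377928, where the other controls had no peak. Control replicate 6 scored 0.88 at Insig1 28072249, where the others had none, and control replicate 3 scored 0.108 at Fdft1 63172453, where the others were at 0 to 0.0204.

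At the gene level, Hmgcs1 scored 0.827 in knockout replicate 4, Lss 0.947 and Scd1 0.366 in knockout replicate 5, and Acly 0.715 and Scd2 0.373 in knockout replicate 4. Of the controls, Fdps scored 0.965 in replicate 4, Nsdhl 0.547 and Elovl1 0.444 in replicate 2, Mvd 0.551 and Scap 0.298 in replicate 5, Me1 0.532 in replicate 6 and Lpin1 0.619 in replicate 1.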

How the results depend on the processing

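Peak lists give no depth, regions of a gene share libraries, and neighbouring windows can share a peak. With lists cut to 36467 peaks, no tested region overlapped Me1 86647942, Sc5d 42208537, Cyp51 4135204, Elovl6 129565989 and 129554514, Fdft1 63172453 and Acsl4 142430395. These have no value there. Of the 25 regions named by rule, 18, these among them, kept their direction and call under every alternative that gave a value. Of 534 such values, 505 kept both, 27 lost the call (at Insig1 28072249, Scap 110380710, Npc2 84764681, Srebf1 60213289, Abca1 53246523 and Acsl3 78649269) and 2 turned: Fdft1 63164254 differed by 0.17 with lists cut to 36467 peaks (limma adjusted p = 0.0415) and by 0.07 with overlapping peaks merged. Lists of that length called 22 member regions lower and 27 higher of 122. Over the other alternatives 25 to 51 were lower and 31 to 56 higher. Fisher's exact test called 10 lower and 13 higher. Taking each gene's highest gene-end region called 0 genes lower and 5 higher, and Lpin1 then differed by 0.0355 (limma adjusted p = 0.346). With a peak required in at least 6 libraries, 0 regions could have a peak in every knockout and no control library, since that takes 5. Leaving out 1 library gave 30 to 37 lower and 36 to 42 higher regions, 2 to 3 lower and 3 to 4 higher genes, 6 to 8 regions with a peak in every knockout and no control library and 3 to 5 with the reverse, the 5 being without control replicate 5.

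Same-numbered libraries did not deviate together, with correlations of 0.0527, -0.0008, -0.0238, 0.0036 and 0.1391, and numbers 1 and 5 alone correlated best with their own. With the replicate block, 35 regions were lower and 36 higher, and the same 5 genes were called.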
